A study of Saccharomyces cerevisiae with 4 samples.

Results

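The mitochondrial protein import machinery of budding yeast was compared between a long-lived mutant and its wild type. It comprised 38 genes chosen by name, namely the subunits of the TOM, SAM, TIM and PAM complexes, the disulfide relay of the intermembrane space and the peptidases that process imported precursors. Each of the 38 had 1 probe set, out of 5376 probe sets tested for 5330 genes. The study measured RNA on 4 one-colour Affymetrix arrays. The wild type was strain W303 (W303-1A in the study's design), and the other strain carried the genotype SSG1-1 mutant. There were 2 arrays for each, numbered 1 and 2. Both strains had been kept at 25 °C in YPD and were moved to SDC medium at pH 6.0, where they reached early-log phase after 12 h (2000000 cells per ml). The labels name no drug or other agent. The labels do not say which gene SSG1-1 affects, whether the mutant was 1 clone, or whether each array had a culture of its own. The p-values and intervals therefore rest on the spread among these arrays alone, and that spread may be technical.

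As background, nearly all mitochondrial proteins are made in the cytosol and enter the organelle as precursors through the TOM complex of the outer membrane. From there they are sorted: the SAM complex inserts beta-barrel proteins into the outer membrane, small Tim chaperones carry hydrophobic precursors to the TIM22 complex, and the TIM23 complex with its motor draws precursors with a presequence into the matrix. Presequences are then removed by peptidases, while small cysteine-rich proteins are trapped in the intermembrane space by disulfide bonds made by Mia40 and Erv1.

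The deposited intensities had 2% trimmed means between 1034 and 1298, so the arrays were quantile normalized, and signals below are after that step. Differences are log2 signal of the mutant minus that of the wild type, whose median over all tested probe sets stood at -0.02 with this step and at -0.15 without it. Arrays with the same number resembled each other more than arrays of the same strain did. Their median absolute log2 differences over all probe sets were 0.136 for number 1 and 0.128 for number 2, while W303 arrays differed by 0.184 and SSG1-1 arrays by 0.193. W303-1A is of mating type a, and genes of alpha cells and of sporulation were measured as a check. The 4 alpha-cell genes summed to 907 and 1445 in W303 and 1033 and 1182 in SSG1-1, of which SAG1 made up most on every array, at 758 and 1236 in W303 against 878 and 961 in SSG1-1. Their differences ran from -0.63 for MF(ALPHA)1 to 0.57 for STE3. The 6 a-cell genes summed to 43034 and 47250.0 in W303 and 43738 and 42625 in SSG1-1, with differences from -0.36 for BAR1 to 0.23 for MFA1. The 6 sporulation genes summed to 712 and 831 in W303 and 830.4 and 794 in SSG1-1, with differences from -0.29 for SPR3 to 0.34 for SPS4. No marker was at 0. None of the 4 alpha-cell, 6 a-cell and 6 sporulation genes passed the adjusted threshold.

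No member of the import machinery passed the test between strains, which had no term for array number. Of the 38, 0 had a limma p, adjusted over all tested probe sets, under 0.05, against 0.0186% of all tested probe sets, and 0 had an unadjusted p under 0.05, where the background was 2.72% higher and 1.8% lower. The adjusted p of every member lay between 0.998 and 0.999. The 95% intervals of all 38 log2 differences held 0. After quantile normalization, 36 of the intervals lay wholly within a 2-fold change and 26 within a 1.5-fold change in either direction. The same shares over all tested probe sets are not given here. The intervals rest on a spread among arrays that may be technical, so they do not bound the difference between the strains. The differences ran from -0.22 for ERV1 to 0.38 for MAS1, and 0 members reached a 2-fold difference, where 0.725% of all probe sets did. RNA was taken from whole cultures, so a change in a share of the cells and a change in RNA per cell cannot be told apart.

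The members as a group stood slightly above the middle of the array. Their median log2 difference was 0.070 after quantile normalization, 0.083 with median centring and -0.065 in the deposited values, so its sign depended on the scaling. Relative to the median of all tested probe sets it was 0.087 after quantile normalization and 0.085 in the deposited values. After quantile normalization 27 of the 38 differences were above 0, where 45.9% of all tested probe sets were. In the deposited values 8 of the 38 were above 0, near the 20.3% of all tested probe sets. Relative to the median of all probe sets, 27 members lay above it and 10 below it both after quantile normalization and in the deposited values. Median centring shifts each array by a constant, so it gave the same positions as the deposited values. By definition, 2688 of the 5376 tested probe sets lay above that median. The middle 50% of the members lay between -0.015 and 0.12, where that of all probe sets lay between -0.13 and 0.094. The strains did not overlap for 18 members: 15 of the 38 were higher on both SSG1-1 arrays, where 14% of all tested probe sets were, and 3 were lower on both, where the background was 18%. These counts moved with the scaling: 7 members were higher on both mutant arrays with median centring (13.3% of all probe sets) and 0 in the deposited values (3.40%). Between the arrays of 1 strain the members' median difference, array 2 minus array 1, was 0.014 for W303 and 0.062 for SSG1-1. No test of the group as a whole was made.

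**Figure D1:**
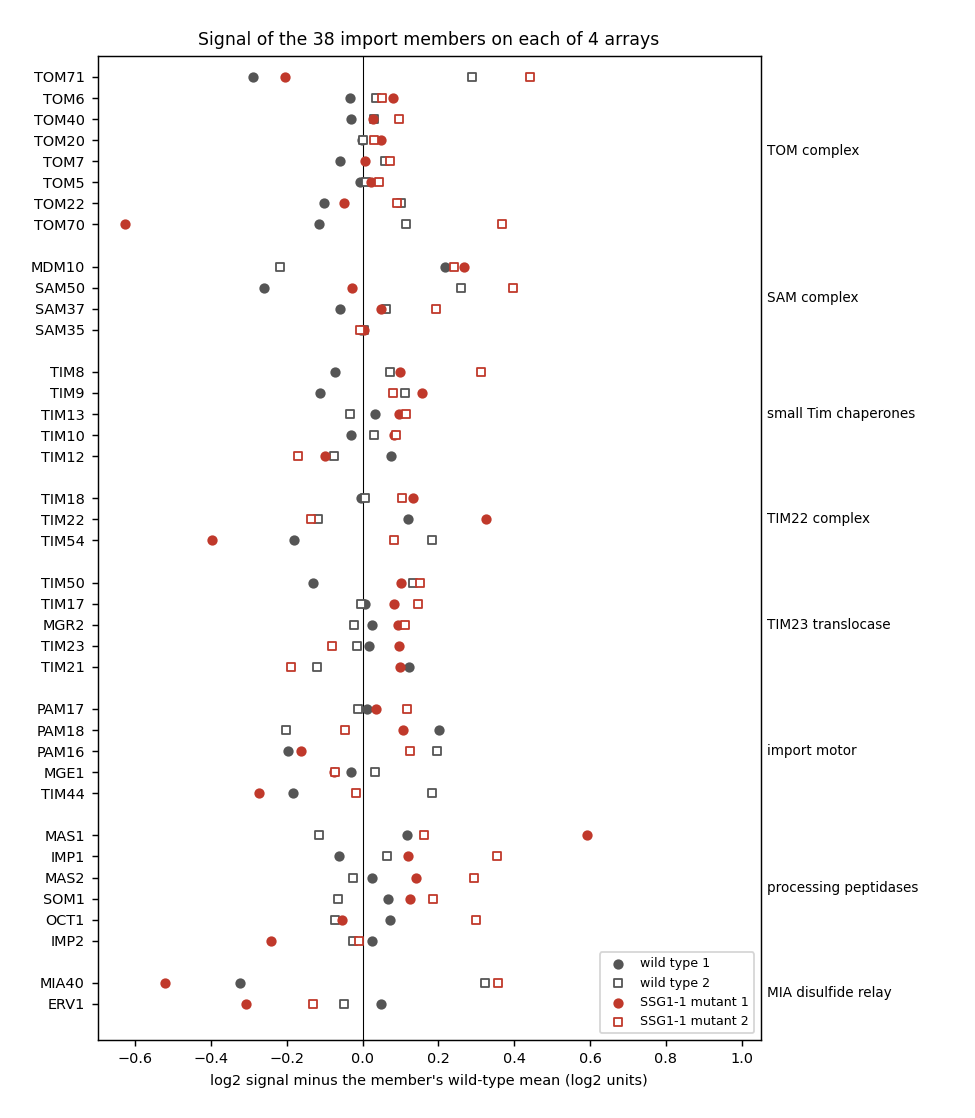
Normalized signal of each import member on the 4 arrays, as log2 signal minus that member's own wild-type mean, members being grouped by complex. Circles are arrays numbered 1 and squares arrays numbered 2. The points of most TOM subunits lie within 0.2 log2 units of each other, while TOM70, TOM71 and MIA40 spread more by array number than by strain.

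Among the receptors and channel of the TOM complex, the common entry gate, only TOM70 and TOM71 differed by over 0.07 log2 units after quantile normalization. The largest difference among the other genes was 0.11 with median centring (TOM40) and, in size, -0.14 in the deposited values (TOM5). TOM40 (YMR203W), the beta-barrel channel, had signals of 11332 and 11825 on the W303 arrays against 11800.1 and 12372 on the SSG1-1 arrays. The lower mutant array fell below the higher wild-type array, so the strains overlapped, and the log2 difference was 0.062 ± 0.064 (SE, n = 2 arrays of each strain, limma adjusted p = 0.998). TOM20, the receptor for presequences, had 10955 and 10985 in W303 against 11347 and 11205 in SSG1-1. TOM22, the central receptor, had 8644 and 9962 in W303 against 8961 and 9872 in SSG1-1, with overlap. The small subunits Tom5, Tom6 and Tom7 help the complex assemble and pass precursors on. The signals of TOM5 were 5982 and 6051 in W303 against 6112 and 6199 in SSG1-1. Those of TOM6 were 10364 and 10861 in W303 against 11205 and 10988 in SSG1-1. TOM7, the only one of the 3 with overlap, had 9136 and 9914 in W303 against 9566 and 10002 in SSG1-1. TOM5, TOM6 and TOM20 were higher on both mutant arrays, by less than 0.07 log2 units. For each of these genes the strains overlapped with median centring and in the deposited values. For the 6 genes other than TOM70 and TOM71 the differences ran from 0.019 to 0.065, all 6 of them negative in the deposited values. Their 95% intervals together spanned -0.24 to 0.28, or 0.846-fold to 1.21-fold.

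TOM70 and TOM71, close paralogs whose products are receptors for carrier precursors and docks for cytosolic chaperones, had the widest intervals of the complex. TOM70 (YNL121C) had signals of 1638 and 1921 on the W303 arrays against 1147 and 2289 on the SSG1-1 arrays, so the mutant arrays lay on both sides of the wild type. Its log2 difference was -0.13 ± 0.35 (SE, n = 2 arrays of each strain, limma adjusted p = 0.998), with a 95% interval of -1.02 to 0.76. The difference was -0.51 between the arrays numbered 1 and 0.25 between those numbered 2, opposite in sign. Without mutant replicate 1 it was 0.36. TOM71 (YHR117W) had signals of 757 and 1129 on the W303 arrays against 802 and 1257 on the SSG1-1 arrays, both arrays numbered 1 being dimmer than both numbered 2. Its difference between strains was 0.12 ± 0.30 (SE, n = 2 arrays of each strain, limma adjusted p = 0.998), negative in the deposited values. The difference between numbers, number 1 minus number 2, was -0.61. TOM70 had the same difference between numbers, at -0.61. Over the machinery, 17 of 38 members differed more between array numbers than between strains, where 62.5% of all tested probe sets did.

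The SAM complex folds beta-barrel proteins such as Tom40 into the outer membrane. MDM10 (YAL010C), whose product is a beta-barrel shared with the tether between endoplasmic reticulum and mitochondria, had signals of 456 and 337 on the W303 arrays against 472 and 463 on the SSG1-1 arrays. Both mutant arrays were above the wild type, but wild-type array 1 lay close to them, and the log2 difference was 0.25 ± 0.20 (SE, n = 2 arrays of each strain, limma adjusted p = 0.998). It was 0.050 within number 1 and 0.46 within number 2. SAM50 (YNL026W), the core barrel of the complex, had signals of 1402 and 2012 on the W303 arrays against 1646 and 2211 on the SSG1-1 arrays, with overlap and a difference of 0.18 ± 0.24 (SE, limma adjusted p = 0.998). The peripheral subunit gene SAM37 had 896 and 975 in W303 against 968 and 1069 in SSG1-1. For SAM35, whose product binds the sorting signal of beta-barrel precursors, the signals were 3846 and 3871 in W303 against 3871 and 3838 in SSG1-1, with overlap and a difference of -0.0015. The 4 genes had a median of 0.15, and -0.0055 in the deposited values.

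In the intermembrane space, Tim9 with Tim10 and Tim8 with Tim13 form ring-shaped chaperones that escort hydrophobic precursors. TIM8 (YJR135W-A) had signals of 5215 and 5766 on the W303 arrays against 5871 and 6815 on the SSG1-1 arrays, without overlap between the strains, and a log2 difference of 0.21 ± 0.11 (SE, n = 2 arrays of each strain, limma adjusted p = 0.998). The gene of its partner, TIM13, had 5197 and 4967 in W303 against 5432 and 5504 in SSG1-1, also without overlap, and a difference of 0.11 that was negative in the deposited values. TIM10 had 10284 and 10734 in W303 against 11123 and 11161 in SSG1-1, without overlap. For TIM9, the gene of its partner, the strains overlapped at 2929 and 3422 in W303 against 3530.1 and 3348 in SSG1-1. TIM12 (YBR091C), which encodes the member bound to the TIM22 complex, lay on the other side. Its signals were 2216 and 1998 on the W303 arrays against 1963 and 1868 on the SSG1-1 arrays, both mutant arrays below the wild type, with a difference of -0.14 ± 0.13 (SE, n = 2 arrays of each strain, limma adjusted p = 0.998). The median over the 5 genes was 0.11, and -0.046 in the deposited values.

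The TIM22 complex inserts carrier proteins into the inner membrane. TIM18 (YOR297C), whose product is a membrane subunit that helps the complex assemble, had signals of 4442 and 4476 on the W303 arrays against 4891 and 4787 on the SSG1-1 arrays, both mutant arrays higher. Its difference of 0.12 ± 0.090 (SE, n = 2 arrays of each strain, limma adjusted p = 0.998) was negative in the deposited values. TIM54 (YJL054W), whose product exposes a large domain to the intermembrane space, had signals of 906 and 1166 on the W303 arrays against 780.3 and 1089 on the SSG1-1 arrays. The strains overlapped, and the difference was -0.16 ± 0.23 (SE, n = 2 arrays of each strain, limma adjusted p = 0.998), against -0.42 between numbers. TIM22, the channel itself, had 892 and 757 in W303 against 1029.7 and 747 in SSG1-1: the arrays numbered 1 were both brighter than the arrays of their strain numbered 2. Its difference between strains was 0.095, negative in the deposited values, against 0.35 between numbers.

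In the TIM23 complex, which moves presequence proteins across or into the inner membrane, TIM17 and TIM23 encode the related core subunits. TIM17 (YJL143W) had signals of 9126 and 9064 on the W303 arrays against 9632 and 10058 on the SSG1-1 arrays, with both mutant arrays higher and a log2 difference of 0.11 ± 0.067 (SE, n = 2 arrays of each strain, limma adjusted p = 0.998). TIM23 had 5552 and 5432 in W303 against 5865 and 5192 in SSG1-1, the mutant arrays lying on both sides of the wild type, with a difference of 0.0069. The presequence receptor gene TIM50 (YPL063W) had 792 and 950.0 on the W303 arrays against 930.4 and 963 on the SSG1-1 arrays. The strains overlapped there, at a difference of 0.13 ± 0.15 (SE, n = 2 arrays of each strain, limma adjusted p = 0.998). MGR2, whose product guards lateral release of precursors into the membrane, had 6265 and 6060.4 in W303 against 6572 and 6660.3 in SSG1-1, without overlap. TIM21, which encodes a subunit that couples the translocase to respiratory complexes, had 2622 and 2217 in W303 against 2579 and 2115 in SSG1-1, brighter on the arrays numbered 1 in both strains. The 5 genes had a median of 0.10, and in the deposited values all 5 differences were negative with a median of -0.064.

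The motor that pulls precursors into the matrix is built around the Hsp70 Ssc1. TIM44 (YIL022W), which tethers Ssc1 to the channel, had signals of 897 and 1156 on the W303 arrays against 843 and 1006 on the SSG1-1 arrays. The strains overlapped, and its log2 difference of -0.15 ± 0.19 (SE, n = 2 arrays of each strain, limma adjusted p = 0.998) was smaller in size than its difference of -0.31 between numbers. PAM18, the J protein that stimulates Ssc1, had 3987 and 3017 in W303 against 3731 and 3359.5 in SSG1-1. PAM16, its J-like partner, had 666 and 875 in W303 against 682 and 832 in SSG1-1. Both overlapped, with differences of 0.030 for PAM18, negative in the deposited values, and -0.019 for PAM16. PAM17 (YKR065C) had 4543 and 4473 on the W303 arrays against 4622 and 4885 on the SSG1-1 arrays, both mutant arrays higher, and its difference of 0.076 ± 0.093 (SE, n = 2 arrays of each strain, limma adjusted p = 0.998) was negative in the deposited values. MGE1, the nucleotide exchange factor of Ssc1, had 4394 and 4594 in W303 against 4266 and 4269.7 in SSG1-1, both mutant arrays lower, at a difference of -0.074. For the motor genes the median was -0.019, -0.033 with median centring and -0.18 in the deposited values. Ssc1's own gene, SSC1, had 9554 and 9093 in W303 against 8779 and 9342 in SSG1-1, with overlap.

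**Figure D2:**
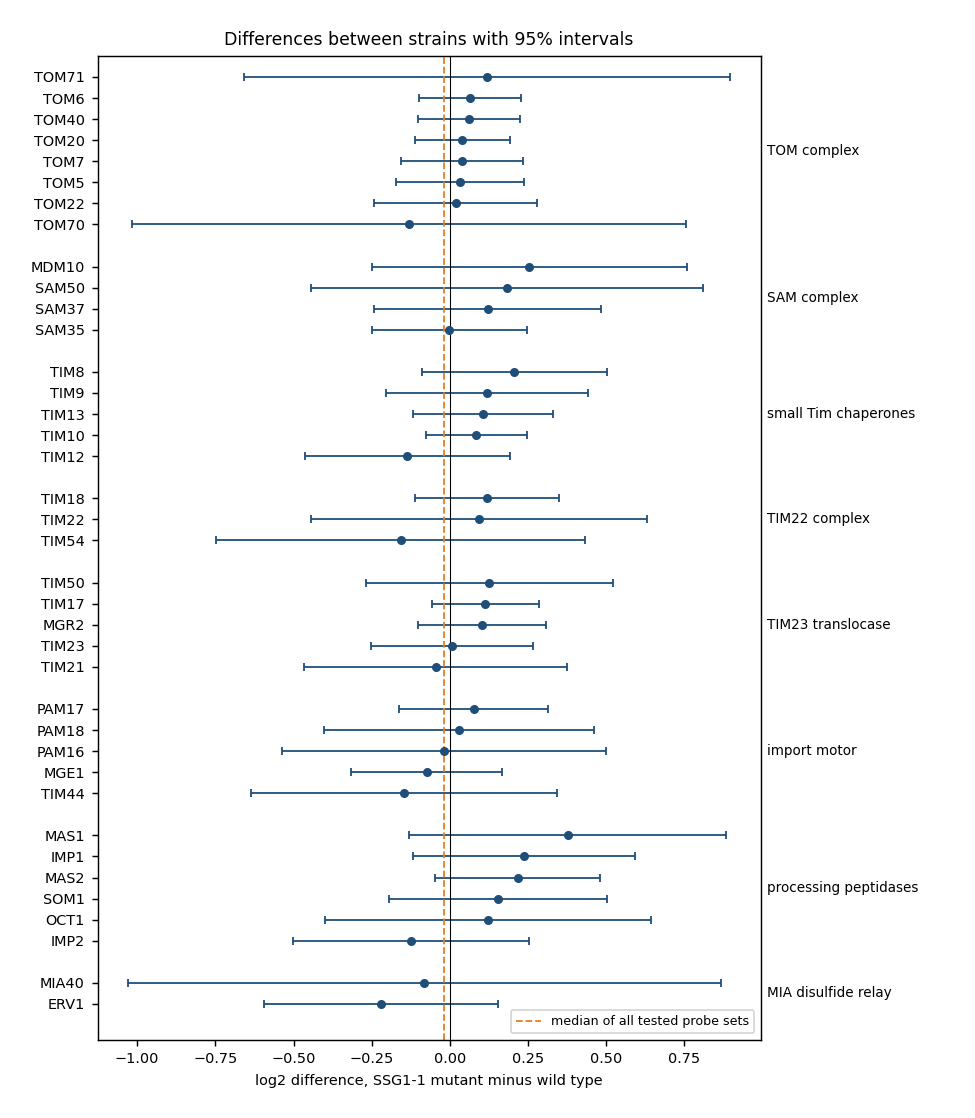
Log2 difference, mutant minus wild type, of each import member with its 95% interval from limma (2 arrays per strain), grouped by complex; the dashed line is the median of all tested probe sets, -0.02. Every interval crosses 0, and MAS1 (0.38) and ERV1 (-0.22) are the extremes.

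The member with the largest difference over the 4 arrays was a processing peptidase gene. MAS1 and MAS2 encode the beta and alpha subunits of the matrix processing peptidase, which cuts off presequences. MAS1 (YLR163C) had signals of 1477 and 1257 on the W303 arrays against 2055 and 1523 on the SSG1-1 arrays, a 1.30-fold difference with both mutant arrays above the wild type. On the log2 scale it was 0.38 ± 0.20 (SE, n = 2 arrays of each strain, 95% interval -0.13 to 0.88, limma adjusted p = 0.998). MAS2 (YHR024C) had signals of 4358 and 4208 on the W303 arrays against 4721 and 5247 on the SSG1-1 arrays, again without overlap, and a log2 difference of 0.22 ± 0.10 (SE, n = 2 arrays of each strain, 95% interval -0.048 to 0.48, limma adjusted p = 0.998). With 1 array left out, the difference of MAS1 was 0.16 without mutant replicate 1, where TOM71 (0.44) was the largest, and 0.60 without mutant replicate 2, where TOM70 (-0.64) was larger in size. It was 0.26 without wild-type replicate 2, where SAM50 (0.44) was the largest, and 0.49 without wild-type replicate 1. Within numbers 1 and 2 the difference was 0.48 and 0.28 for MAS1 and 0.12 and 0.32 for MAS2. Both stayed positive in the deposited values, at 0.21 for MAS1 and 0.064 for MAS2. The strains overlapped there for both genes, and with median centring they overlapped for MAS1 but not for MAS2.

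The inner membrane peptidase, which trims proteins sorted to the intermembrane space, is made of Imp1, Imp2 and the accessory protein Som1. IMP1 (YMR150C) had signals of 2205 and 2406 on the W303 arrays against 2504 and 2943 on the SSG1-1 arrays, without overlap, and a log2 difference of 0.24 ± 0.14 (SE, n = 2 arrays of each strain, limma adjusted p = 0.998). SOM1 had 971 and 887 in W303 against 1012 and 1056 in SSG1-1, also without overlap, at a difference of 0.16. IMP2, the gene of the second catalytic subunit, had 1211 and 1169 in W303 against 1006 and 1182 in SSG1-1: mutant array 1 was the lowest and the rest were close together. OCT1, the peptidase that removes an octapeptide after the first cut, had 205 and 185 in W303 against 188 and 239.9 in SSG1-1, with overlap and mutant array 2 the highest. The median over the 6 peptidase genes was 0.19, 0.19 with median centring and 0.041 in the deposited values, and 4 of the 6 were higher on both SSG1-1 arrays, where 14% of all probe sets were. That count was 3 with median centring (13.3% of all probe sets) and 0 in the deposited values (3.40%).

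The disulfide relay, in which Mia40 oxidizes incoming proteins and the sulfhydryl oxidase Erv1 reoxidizes Mia40, had 1 gene that was lower on both mutant arrays and 1 whose direction depended on the arrays taken. ERV1 (YGR029W) had signals of 808 and 756 on the W303 arrays against 631 and 714 on the SSG1-1 arrays, both SSG1-1 arrays being the lower ones. Its log2 difference was -0.22 ± 0.15 (SE, n = 2 arrays of each strain, 95% interval -0.59 to 0.15, limma adjusted p = 0.998), at -0.36 within number 1 and -0.083 within number 2. MIA40 (YKL195W) had signals of 603 and 945 on the W303 arrays against 526 and 968 on the SSG1-1 arrays, with the largest SE of any member. Its arrays grouped by number, with a difference of -0.76 for number 1 minus number 2 against -0.082 ± 0.37 between strains (SE, limma adjusted p = 0.998, 95% interval -1.03 to 0.87). Between strains it was -0.20 within number 1 and 0.035 within number 2, 0.25 without wild-type replicate 2 and 0.35 without mutant replicate 1, so its sign turned. ERV1 was negative under all 3 scalings and with any 1 array left out. In the deposited values, where the median of all probe sets was itself -0.15, the strains overlapped for ERV1.

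Seen array by array, mutant array 2 was more often the highest for the members than any other array. It was the highest of the 4 for 19 of the 38 members, against 8 for mutant array 1, 6 for wild-type array 2 and 5 for wild-type array 1. Wild-type array 1 was the lowest for 16 members. The same counts over all tested probe sets are not given here, so these do not set the members apart from other genes. The median deviation of the members from their own mean over the 4 arrays was -0.057 and -0.0074 log2 units on wild-type arrays 1 and 2, and 0.0038 and 0.062 on mutant arrays 1 and 2. Over all tested probe sets it lay between -0.017 and 0.017 on each array. The median difference of the members was 0.059 within number 1 and 0.046 within number 2. Of the 38 members, 21 were higher in the mutant within both numbers, where 29.9% of all tested probe sets were, and 6 were lower within both, where 36.4% were. Leaving out 1 array at a time moved the median between 0.032 (without wild-type replicate 1) and 0.095 (without mutant replicate 1). It was 0.046 without mutant replicate 2 and 0.084 without wild-type replicate 2. Members above all arrays of the other strain numbered 17 without wild-type replicate 1 (30.7% of all tested probe sets), 24 without wild-type replicate 2 (29.0%), 24 without mutant replicate 1 (29.7%) and 18 without mutant replicate 2 (31.4%). In the same order, 7, 6, 7 and 8 members were below them, where 37.4%, 32.9%, 32.8% and 39.2% of all probe sets were.

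**Figure D3:**
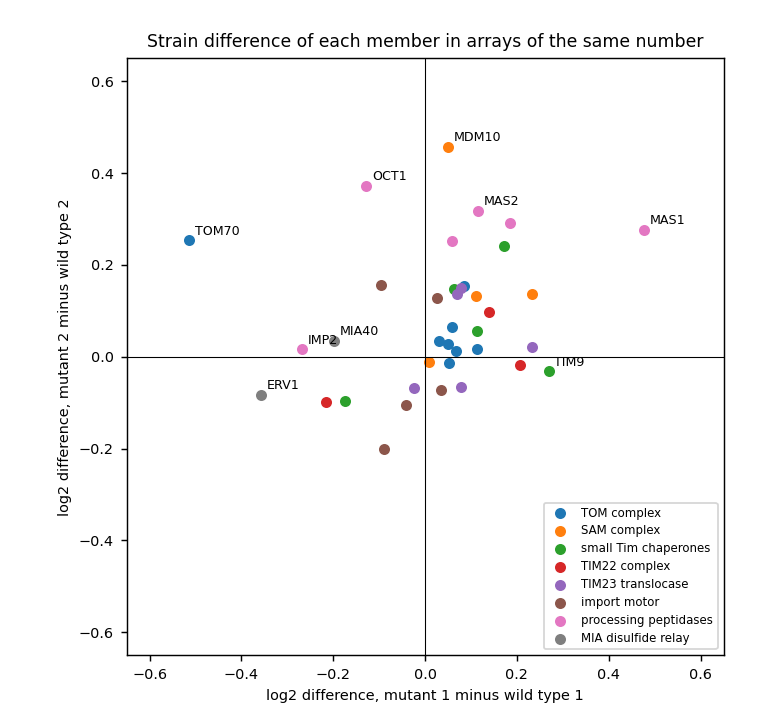
Log2 difference of each import member between the arrays numbered 1 (horizontal) and between those numbered 2 (vertical), mutant minus wild type, coloured by complex. MAS1 and MAS2 lie in the upper right and ERV1 in the lower left, while TOM70 (-0.51 and 0.25) and OCT1 (-0.13 and 0.37) change sign between numbers.

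The import genes were set beside other genes of mitochondrial biogenesis. For respiratory chain and ATP synthase genes (39 in number) the median difference was 0.35 (0.22 in the deposited values), with 38 of 39 higher on both mutant arrays (18 deposited). For 66 genes taken by symbol as mitochondrial ribosomal proteins it was 0.19 (0.029 deposited), with 41 of 66 higher on both mutant arrays (5 deposited). Of all tested probe sets 14% were higher on both, and 3.40% in the deposited values. The import members, at 0.070 with 15 of 38 higher (0 deposited), had the lowest median of the 3 lists after quantile normalization and in the deposited values. Median centring shifts all lists alike, so it could not change the order seen in the deposited values. At an unadjusted limma p under 0.05, 28 of the 39 respiratory genes, 6 of the 66 ribosomal genes and 0 of the 38 import genes were higher, where the background was 2.72%. None of these genes passed when adjusted over all probe sets, and the difference between the lists was not tested.

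**Figure D4:**
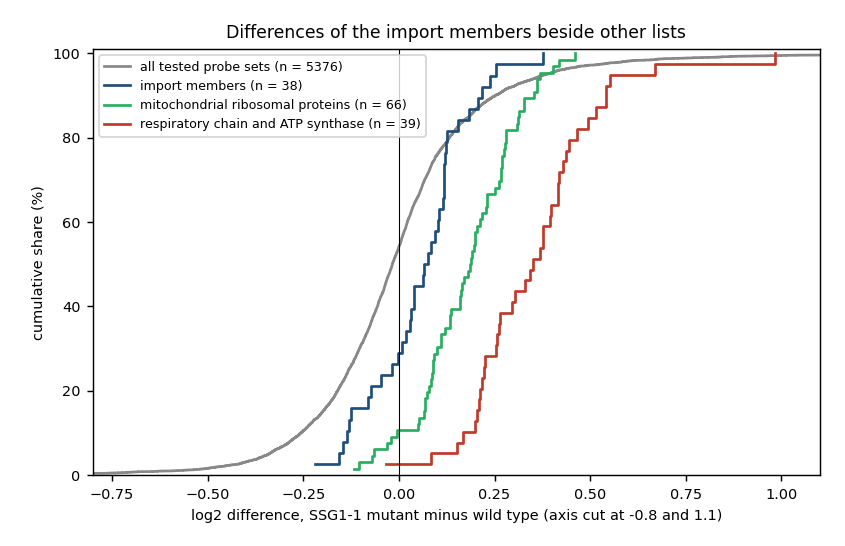
Cumulative share of genes by log2 difference, mutant minus wild type. Shown are the 38 import members, 66 genes taken by symbol as mitochondrial ribosomal proteins, 39 respiratory genes and all 5376 tested probe sets. The import curve lies nearest to that of all probe sets, with medians of 0.070, 0.19, 0.35 and -0.02 in the order named; that of the import members was -0.065 in the deposited values.

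Further genes of import and its surroundings came from 8 lists with 63 genes, all of them measured. After adjustment over all tested probe sets 0 of the 63 passed, and at an unadjusted limma p under 0.05, 6 were higher and 0 lower, where the background was 2.72% and 1.8%. Those 6, chosen after their values were seen, were MBA1, MIC10, MIC19, COX17, COX12 and QCR6, of which COX12 and QCR6 also belong to the respiratory list above. The small CX9C proteins, which Mia40 folds, had a median difference of 0.23 over 11 genes (0.089 deposited), with 7 higher on both mutant arrays (14% of all probe sets) and 1 lower (18%). In the deposited values 1 was higher (3.40%) and 1 lower (22.3%). COX12, a subunit of cytochrome c oxidase, had 7358 and 7031 in W303 against 9455 and 9235 in SSG1-1 and a difference of 0.38 ± 0.073 (SE). MIX14 had 487 and 271 in W303 against 546 and 532 in SSG1-1, the wild-type arrays lying far apart, and a difference of 0.57 ± 0.30 (SE).

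Factors that insert proteins into the inner membrane from the matrix side had a median of 0.26 over 5 genes (0.10 deposited). MBA1, a receptor for mitochondrial ribosomes, had 2361 and 2859.6 in W303 against 3747 and 4111 in SSG1-1, without overlap, and a log2 difference of 0.59 ± 0.14 (SE, n = 2 arrays of each strain, limma adjusted p = 0.936). COX18, which helps insert a cytochrome oxidase subunit, stood at 0.26 ± 0.13 (SE), and OXA1, the general insertase, at 0.051. Genes of MICOS, which shapes the cristae, and of the endoplasmic reticulum tether had a median of 0.17 over 10 genes (0.029 deposited). In that list MIC19 was at 0.32 ± 0.12 and MIC27 at 0.29 ± 0.21 (SE).

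The median was, for cytosolic chaperones of precursors, 0.083 over 7 genes (-0.016 deposited). SSA1, a cytosolic Hsp70, had 2559.9 and 1929.8 in W303 against 4448 and 2774 in SSG1-1, without overlap, and a difference of 0.66 ± 0.27 (SE), while XDJ1, a J protein, was at 0.20 ± 0.20. SSA1 and SSA2 are near-identical genes, so the value is uncertain for SSA1 alone. For other import and sorting factors it was -0.012 over 11 genes, with MDJ2 at -0.37 ± 0.32 and TAM41 at 0.27 ± 0.17 (SE). Inner membrane quality control genes stood at 0.041 over 8 genes (-0.12 deposited), with the prohibitin gene PHB1 at 0.24 ± 0.13 and the protease gene AFG3 at 0.20 ± 0.13 (SE). Matrix folding genes were at -0.025 over 6 genes (0.0051 with median centring and -0.14 deposited). The Hsp70 gene ECM10 was at -0.37 ± 0.22 and the disaggregase gene HSP78 at 0.068 ± 0.19 (SE). In the deposited values 0 of the 6 differences were above 0, where 20.3% of all tested probe sets were.

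For genes that respond to or relieve clogged import, the median was 0.19 over 5 genes (0.045 deposited). Of the 5 differences 3 were above 0, where 45.9% of all tested probe sets were, and 2 were below. Those below were PDR5 at -0.21 ± 0.28 and PDR3 at -0.072 ± 0.26 (SE), both with overlap. MSP1, the outer membrane ATPase that extracts stalled or misplaced proteins, had 514 and 506 in W303 against 747 and 596 in SSG1-1, without overlap, and a log2 difference of 0.39 ± 0.17 (SE, n = 2 arrays of each strain, limma adjusted p = 0.998). CIS1, which recruits Msp1 to the TOM complex, had 62.7 and 35.8 in W303 against 72.4 and 47.4 in SSG1-1, with overlap and near the dim end of the arrays, at 0.31 ± 0.41 (SE).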

How the data were processed

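Array intensity on a linear scale was deposited by the authors as 1 value per probe set and array. GCOS (Affymetrix software) is named in the submitters' processing notes, and a second deposited table holds MAS5 intensity with detection calls. How the arrays were scaled is not given in the sources used here. In the second table both columns headed by a strain equalled replicate 2 of that strain in all 10928 values, and the calls beside them were used; 4 columns whose headers name no strain were not.

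Gene names came from the platform annotation, updated to the R64 gene table. Those named for 1 S. cerevisiae gene and present in at least 1 call column were tested (5376 of 5498), the one with the highest mean standing for a gene. No coordinates or sequences are given.

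Signals under 0.1 were set to 0.1, quantile normalized as log2 values and compared with limma 3.58.1 in R 4.3.3 (eBayes with a mean-variance trend, Benjamini-Hochberg over all tested probe sets, threshold 0.05), after tests on simulated data. Quantile normalization was the main setting because the deposited arrays were not at 1 level; alternatives used the deposited values, median centring or another filter, probe set rule or floor, no trend, a replicate block, or 1 array fewer. Errors are limma's moderated SEs, and 2 arrays per strain limit the precision. The members, the gene lists and the tests were chosen with earlier results of these data known. The naming rule gives all statistics for members at an unadjusted p under 0.05 (0 of them) and for the 2 with the largest absolute difference in each complex, and names up to 2 genes of each related list. TOM40, MAS2, SSC1, OXA1, PDR3, PDR5 and the genes singled out in the text were added after their values were seen. The respiratory and ribosomal lists were taken by gene symbol after the files were seen. Python 3.11.15 with matplotlib 3.10.9 drew the figures.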

Additional observations from a re-analysis of the deposited data

How the results depend on the processing

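Each of the 38 members' differences was recomputed under 12 alternatives, giving 456 values, of which 406 kept their sign and their side of the threshold, 46 changed sign and 4 passed the threshold. Those 4 came from the fit with a replicate block, in which limma adjusted p was 0.000906 for MAS1 (0.38), 0.00905 for TIM8 (0.21), 0.0132 for MAS2 (0.22) and 0.0304 for IMP1 (0.24). That fit called 828 probe sets in all, 427 higher and 401 lower, and took each variance from the mean-variance trend alone. The fit to the deposited values also took each variance from the trend alone, unlike the main fit. The deviations of same-numbered arrays correlated at 0.634 over all probe sets and 0.713 over the 38 members; with only 2 pairs, and labels that do not say what a number marks, the numbers were not taken to pair the arrays. Over all probe sets 1 passed in the main setting, 6 in the deposited values, 4 with median centring, 0 without the trend (where limma gave 280 at an unadjusted p under 0.05) and 1 to 4 with 1 array left out (2 without wild-type replicate 1, 3 without wild-type replicate 2 and 4 without mutant replicate 1). Members past the threshold stayed at 0 with 1 array left out. The members' median was -0.065 in the deposited values, a reversal, and 0.032 to 0.095 with 1 array left out. Members higher on both mutant arrays numbered 15 in the main setting, 0 in the deposited values and 7 with median centring; with 1 array left out, 17 to 24 were higher than all arrays of the other strain and 6 to 8 lower, against 29.0% to 31.4% and 32.8% to 39.2% of all probe sets.

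In the deposited values, where all probe sets had a median of -0.15, these members turned negative: MGR2 (-0.064), PAM17 (-0.089), PAM18 (-0.14), SAM37 (-0.026), TIM10 (-0.037), TIM13 (-0.046), TIM17 (-0.017), TIM18 (-0.028), TIM22 (-0.042), TIM23 (-0.15), TIM50 (-0.027), TIM9 (-0.054), TOM20 (-0.075), TOM22 (-0.11), TOM40 (-0.036), TOM5 (-0.14), TOM6 (-0.065), TOM7 (-0.093) and TOM71 (-0.053). With 1 array left out, the members that changed sign ranged as follows: MIA40 from -0.53 to 0.35, OCT1 from -0.058 to 0.30, PAM16 from -0.22 to 0.18, PAM18 from -0.18 to 0.23, SAM35 from -0.0082 to 0.0047, SAM50 from -0.073 to 0.44, TIM21 from -0.19 to 0.10, TIM22 from -0.13 to 0.33, TIM23 from -0.082 to 0.10, TIM44 from -0.33 to 0.037, TIM50 from -0.0045 to 0.26, TIM54 from -0.40 to 0.084, TOM22 from -0.082 to 0.12, TOM7 from -0.019 to 0.10, TOM70 from -0.64 to 0.36 and TOM71 from -0.20 to 0.44. The cause of the changes of sign was not tested. All probe sets were shifted in the deposited values, and the fits with 1 array left out had fewer arrays.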
